A study of Homo sapiens with 6 samples.

Results

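The 39 genes described here encode proteins of mitosis, from the kinases and cyclins that start it to the spindle, the kinetochore, the spindle checkpoint and the division of the cell. They are a list of gene names, not genes past a threshold, and each is represented by the probe with the highest mean normalized intensity among those that carry its symbol. Of the 39 genes, 38 had a probe, with 46 probes in all, out of 19771 genes named on the array. KIF4A, a kinesin of the spindle midzone, had no probe under its symbol and is not described further here, apart from its promoter. All 38 measured genes passed the filter on dim genes, which left 12766 genes of the array to be tested.

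MDA-MB-231 is an established line from an invasive triple-negative breast cancer, which lacks the estrogen and progesterone receptors and HER2 amplification. MB-231-maspin cells are MDA-MB-231 stably transduced with a lentivirus-based vector for maspin and ZsGreen, a green fluorescent protein, linked by a self-cleaving P2A peptide (Maspin-P2A-ZsGreen). MB-231-control cells are MDA-MB-231 transduced with the same kind of vector for ZsGreen alone. Both were selected with blasticidin, and in both the surviving clones were pooled, so that each line is 1 pool and carries a vector, ZsGreen and the resistance gene. Cy5-labelled RNA was hybridised to 1-colour 3D-Gene oligonucleotide arrays, with 3 arrays labelled MB-231-maspin and 3 labelled MB-231-control. Whether the 3 arrays of a line come from separate cultures is not given in the sources used here, so that the p-values measure the spread between these arrays, which may be technical. The study assayed proliferation after transient transfection of tagged maspin or of an siRNA against maspin, and describes no such assay of these stable lines. The comparison below asks whether transcripts of dividing cells differed between the lines.

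In a cycling cell most of these transcripts accumulate towards G2 and M phase and are low in G1. Cyclin B with CDK1 drives entry into mitosis, Aurora A, PLK1 and the kinesins build the bipolar spindle, and the NDC80 complex at the outer kinetochore holds the microtubules. Unattached kinetochores recruit MAD2, BUBR1 and BUB3, which keep CDC20 from activating the anaphase-promoting complex until every chromosome is attached. RNA of a culture is a sum over cells, so that more cells in G2 or mitosis and more transcript in each such cell cannot be told apart here.

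The values are globally normalized intensities, background-subtracted and scaled so that each array has a median of 25. Of the 24460 gene probes, 89.4% to 91.0% had a value on the MB-231-maspin arrays and 87.1% to 91.3% on the MB-231-control arrays. The lowest value of any measured member was 20.5 (PLK1 on MB-231-control replicate 3), above the brightest negative control spot of any array at 9.35. SERPINB5, which encodes maspin, had 4.20, 2.79 and 4.40 on the arrays labelled MB-231-maspin, against 5.10, 5.61 and 4.11 on those labelled MB-231-control. These values lay under the filter, with a mean of 3.80 in MB-231-maspin and 4.94 in MB-231-control. The brightest negative control spots reached 3.27, 2.58 and 3.44 on MB-231-maspin replicates 1, 2 and 3. On MB-231-control replicates 1, 2 and 3 they reached 3.76, 9.35 and 3.22. SERPINB5 lay a little above the spot of its own array, except on MB-231-control replicate 2. The part of SERPINB5 that the probe covers could not be checked here. Values this near the negative controls therefore give no check of the labels in either direction. The study checked the overexpression of maspin in MB-231-maspin by RT-qPCR and western blot, which are not analysed here. All 6 markers of a mesenchymal line (VIM, CD44, FN1, AXL, CAV1 and MSN) had a mean above 10 in a group, summing to 18360 and 18460 in MB-231-maspin and MB-231-control, while ESR1, the estrogen receptor, was blank on all 6 arrays. Of 6 luminal and 6 basal mammary markers 4 each had such a mean, summing to 3661 and 4112 (luminal) and to 266 and 260.2 (basal) in MB-231-maspin and MB-231-control. KRT18 made up most of the luminal sums (3590 and 4046), while ERBB2, GATA3 and FOXA1 had group means of 16.7 to 27.4. Of 6 leukocyte markers 1 had a mean above 10 in a group (CD14), and of 4 endothelial markers 1 (KDR). Their sums were 40.1 and 37.1 for leukocyte markers in MB-231-maspin and MB-231-control, and 35.6 and 36.5 for endothelial markers.

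The mitosis genes lay higher in MB-231-maspin for 35 of the 38 measured members (92.1%), by small amounts, where 59.9% of all genes tested lay higher. Their median log2 fold change was 0.22, against 0.04 over all 12766 genes tested, and the highest was 0.44 for TTK, a 1.35-fold difference. In limma, 0 of the 38 passed an adjusted p of 0.05, and 0.854% of all genes tested did. The smallest adjusted p belonged to CENPA (0.0582), the histone H3 variant that marks centromeres. At an unadjusted p under 0.05 from limma, 19 of the 38 members were higher in MB-231-maspin and 0 were lower, where 9.49% of all genes tested were higher and 3.84% lower. Every array labelled MB-231-maspin lay above every array labelled MB-231-control for 16 members (42.1%), against 13.8% of all genes tested. These counts rest on the arrays at hand: without any 1 array other than MB-231-control replicate 2, the 19 became 8 to 12 (8 without MB-231-control replicate 1, 9 without MB-231-control replicate 3 or MB-231-maspin replicate 2, 10 without MB-231-maspin replicate 1 and 12 without MB-231-maspin replicate 3), beside 5.80% to 6.86% of all genes. The members are related in the cell cycle and share RNA samples, so they are not independent measurements of the lines.

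**Figure D1:**
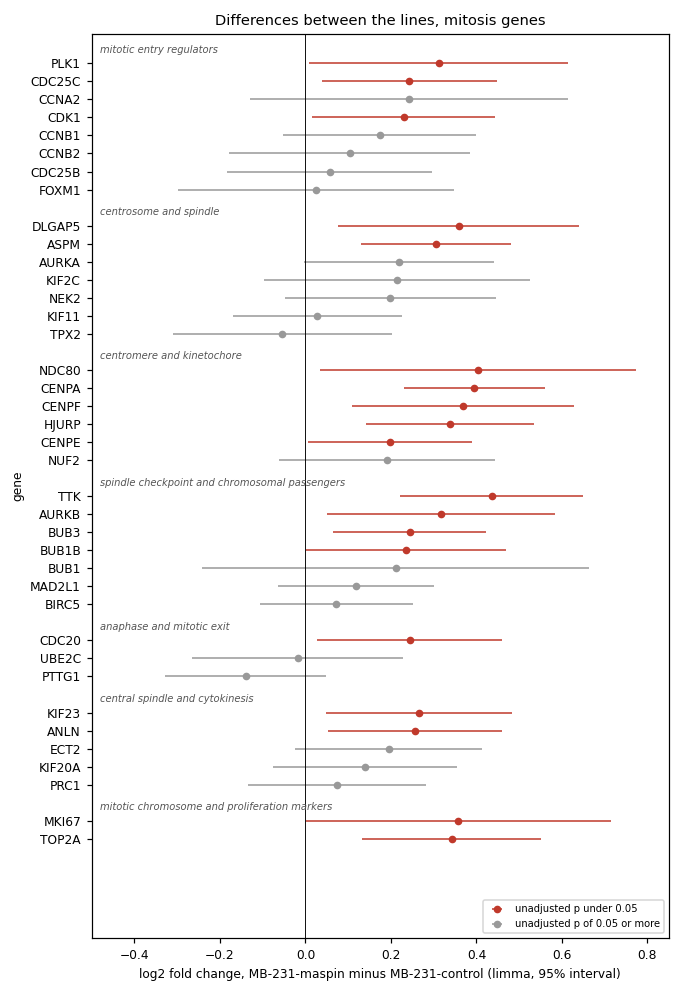
Log2 fold change of the 38 measured mitosis genes, MB-231-maspin minus MB-231-control (horizontal axis), by role and gene (vertical axis). Points are limma estimates from 3 arrays per line and bars are 95% intervals; the 19 genes at an unadjusted p under 0.05 are red and lie above 0, and PTTG1, TPX2 and UBE2C are the 3 genes below 0.

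Promoters of many G2/M genes carry 2 short elements as a known feature. One is the CHR (cell cycle genes homology region), with the letters TTTGAA, to which the MuvB complex binds: with p130 and E2F4 it forms the repressing DREAM complex of resting and G1 cells, and with B-MYB and FOXM1 an activating complex in G2. The other is the CCAAT box, bound by the trimer NF-Y. RefSeq windows (GRCh38.p14) of 300 bases, with 250 bases before a transcription start and 50 after it, were at hand for 32 of the 39 members, with 42 windows. They were not at hand for UBE2C, TPX2, AURKA, BUB3, TTK, BIRC5 and FOXM1. The 8 stretches below are taken from members that lay higher in MB-231-maspin at an unadjusted p under 0.05 and have the CHR letters before the start, to show how the elements are placed. Each is 60 bases, read 5′ to 3′ on the gene's strand, with capitals for the letters TTTGAA or CCAAT on either strand, which read TTCAAA and ATTGG in reverse.
CENPA: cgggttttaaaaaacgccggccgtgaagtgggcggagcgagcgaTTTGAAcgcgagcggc
HJURP: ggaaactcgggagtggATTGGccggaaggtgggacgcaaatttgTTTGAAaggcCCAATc
BUB1B: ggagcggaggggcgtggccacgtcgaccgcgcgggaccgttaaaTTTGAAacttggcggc
CDC20: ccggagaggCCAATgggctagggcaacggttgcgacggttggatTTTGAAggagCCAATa
PLK1: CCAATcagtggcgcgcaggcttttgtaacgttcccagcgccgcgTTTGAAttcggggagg
KIF23: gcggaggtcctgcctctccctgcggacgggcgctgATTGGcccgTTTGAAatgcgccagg
TOP2A: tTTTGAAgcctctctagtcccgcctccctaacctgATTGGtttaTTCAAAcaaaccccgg
ASPM: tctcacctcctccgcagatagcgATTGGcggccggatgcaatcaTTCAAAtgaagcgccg
They lie at chr2:26785994-26786053, chr2:233854631-233854690, chr15:40161002-40161061, chr1:43358872-43358931, chr16:23678816-23678875, chr15:69414250-69414309, chr17:40418032-40418091 and chr1:197146767-197146826 in that order. In CENPA 12 bases separate the CHR letters from the start, in BUB1B 17, in PLK1 23, in KIF23 49 and in CDC20 59, while in HJURP, ASPM and TOP2A the letters lie 105, 107 and 145 bases before it. CDC20 and HJURP have CCAAT letters on both sides of the CHR letters within the stretch, and in KIF23 and TOP2A only 4 bases lie between the 2 elements.

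The same letters stood before members with little difference between the lines. In the stretches of CCNB2, PRC1 and KIF11, whose log2 fold changes were 0.10, 0.07 and 0.03, the CHR letters ended 23, 14 and 22 bases before the start, with CCAAT letters upstream of them.
CCNB2: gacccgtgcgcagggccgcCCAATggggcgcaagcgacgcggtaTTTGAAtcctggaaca
PRC1: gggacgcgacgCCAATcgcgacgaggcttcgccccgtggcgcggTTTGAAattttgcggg
KIF11: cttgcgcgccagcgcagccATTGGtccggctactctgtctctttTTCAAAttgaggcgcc
These stretches lie at chr15:59105073-59105132, chr15:90994540-90994599 and chr10:92593058-92593117. Over the windows as a whole, the CHR letters occurred on either strand for 22 of 32 members (68.8%), against 18.2% of all 27305 genes with such windows. Per window the shares were 59.5% for members and 15.2% for all. CCAAT letters occurred for 26 of 32 members (81.2%), against 39.7% of all genes, and both elements for 18 members (56.2%), against 7.26%. Members with the CHR letters had a median log2 fold change of 0.26, with 15 of 21 tested at an unadjusted p under 0.05 from limma. Those with a window but without the letters had a median of 0.20, with 2 of 10. Over all genes tested, 9.49% were higher at that threshold. Members without a window, from TTK (0.44) to TPX2 (-0.05), are on neither side. This split was not tested, and a match of letters is not a measured binding site.

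**Figure D2:**
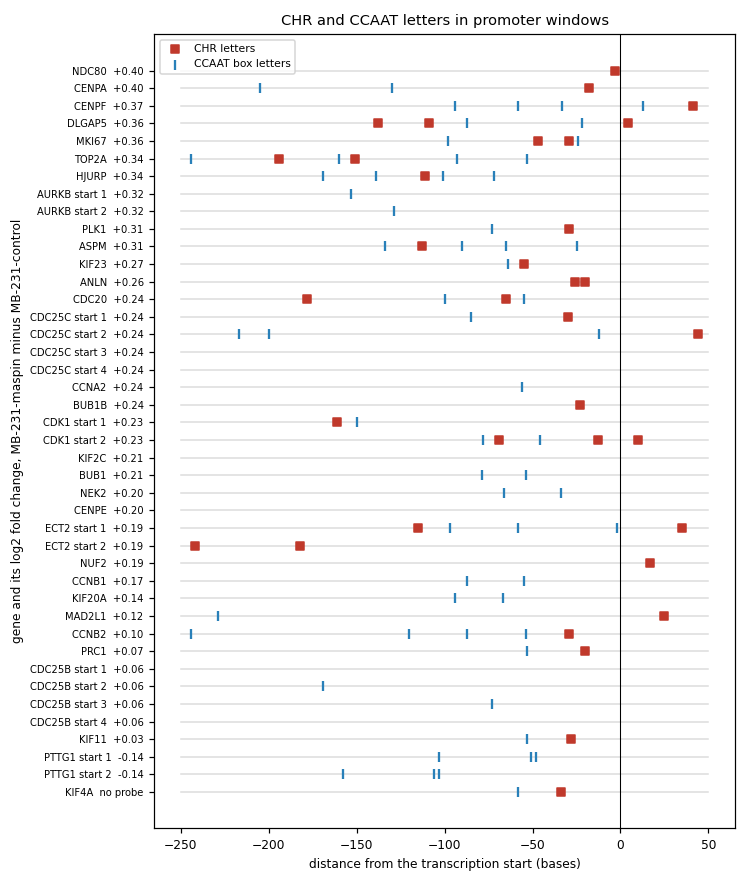
Places of the CHR letters (red squares) and CCAAT letters (blue bars) on either strand, as distance in bases from the transcription start (horizontal axis), in 42 RefSeq windows of 32 members (vertical axis, with each gene's log2 fold change, MB-231-maspin minus MB-231-control). The CHR letters appear for 22 of the 32 members, including genes near the bottom of the order such as CCNB2, PRC1 and KIF11.

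The centromere and kinetochore genes stood highest of the larger role groups, with a median log2 fold change of 0.35 and 5 of 6 members higher at an unadjusted p under 0.05 from limma. The share of all genes tested beside this and the later role groups was 9.49% at that threshold. For estimates above 0 it was 59.9%. CENPA (Entrez Gene 1058) had 508, 502 and 497 on the MB-231-maspin arrays, against 374, 398 and 374 on the MB-231-control arrays. Its arrays lay close together within each line and wide apart between the lines (log2 fold change 0.40, 95% interval 0.23 to 0.56, adjusted p = 0.0582 from limma). HJURP, the chaperone that deposits CENPA at centromeres, had 291, 321 and 308 in MB-231-maspin, against 235, 263 and 229.8 in MB-231-control. The lowest MB-231-maspin array was above the highest MB-231-control array for this gene too (log2 fold change 0.34, adjusted p = 0.15 from limma). CENPF, a large protein of the outer kinetochore and nuclear matrix that rises in G2, had 385, 374 and 353 in MB-231-maspin, against 277, 337 and 253 in MB-231-control. MB-231-control replicate 2 was the nearest of the control arrays to the MB-231-maspin values (log2 fold change 0.37, adjusted p = 0.222 from limma).

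NDC80, the subunit that gives the microtubule-binding complex its name, had 525, 576 and 497 on the MB-231-maspin arrays, against 407, 506 and 316 on the MB-231-control arrays. The groups overlapped, because MB-231-control replicate 2 lay above MB-231-maspin replicate 3 (log2 fold change 0.40, 95% interval 0.03 to 0.77, adjusted p = 0.332 from limma), and without MB-231-control replicate 3 the estimate was 0.23. CENPE, the kinesin that carries chromosomes to the metaphase plate, had 481, 443 and 460.0 in MB-231-maspin, against 380.0, 435 and 393 in MB-231-control. Here the groups were apart by a small gap (log2 fold change 0.20, adjusted p = 0.356 from limma), and a dimmer probe of CENPE showed a log2 difference of only 0.01. NUF2, the partner of NDC80 in the same complex, had a log2 fold change of 0.19 (95% interval -0.06 to 0.44, adjusted p = 0.492 from limma).

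The checkpoint kinases and their partners came next, with a median log2 fold change of 0.24 and 4 of 7 members higher at an unadjusted p under 0.05 from limma. TTK, also called MPS1, the kinase that starts checkpoint signalling at unattached kinetochores, had 271, 287 and 283 in MB-231-maspin, against 190.2, 233 and 201 in MB-231-control. No array of one line reached the range of the other (log2 fold change 0.44, 95% interval 0.22 to 0.65, adjusted p = 0.107 from limma). BUB3, which docks the BUB kinases on the kinetochore, had 1640.2, 1698 and 1726 in MB-231-maspin, against 1394, 1524 and 1363 in MB-231-control. Its lines were apart with little spread within either (log2 fold change 0.24, adjusted p = 0.233 from limma). BUB1B, which encodes BUBR1 of the mitotic checkpoint complex, had 266, 256 and 266 in MB-231-maspin, against 229, 249.7 and 194 in MB-231-control. It lay at the edge of the threshold, at an unadjusted p of 0.0497 from limma.

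AURKB, the kinase of the chromosomal passenger complex that corrects wrong attachments, had 847, 947 and 891 on the MB-231-maspin arrays, against 682, 849 and 639 on the MB-231-control arrays. MB-231-maspin replicate 1 and MB-231-control replicate 2 were almost level, so that the groups overlapped (log2 fold change 0.32, adjusted p = 0.29 from limma). BIRC5, or survivin, the passenger subunit that targets the complex to centromeres, had a log2 fold change of 0.07 (95% interval -0.11 to 0.25). MAD2L1, the MAD2 protein that inhibits CDC20, had a log2 fold change of 0.12 (95% interval -0.06 to 0.30), with groups that were narrowly apart. For BUB1, a kinase of the kinetochore, the estimate was 0.21 with the widest interval among the members (-0.24 to 0.66).

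Among the regulators of mitotic entry, all 8 log2 fold changes were above 0, with a median of 0.20, and 3 members were higher at an unadjusted p under 0.05 from limma. CDK1, the kinase that drives entry into mitosis, had 1551, 1566 and 1521 in MB-231-maspin, against 1328, 1463 and 1179.7 in MB-231-control. The lines were apart, with MB-231-control replicate 3 the lowest array (log2 fold change 0.23, adjusted p = 0.341 from limma). CDC25C, a phosphatase that activates CDK1, had 68.3, 71.7 and 65 in MB-231-maspin, against 54.9, 63.6 and 55.1 in MB-231-control. It too was apart, by a narrow gap to MB-231-control replicate 2 (log2 fold change 0.24, adjusted p = 0.29 from limma). PLK1, the Polo-like kinase of centrosome maturation and mitotic progression, had 32.4, 32.1 and 27.6 in MB-231-maspin, against 25.7, 28.5 and 20.5 in MB-231-control. Its groups overlapped at MB-231-maspin replicate 3 and MB-231-control replicate 2 (log2 fold change 0.31, adjusted p = 0.359 from limma).

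None of the cyclins passed the unadjusted threshold. Cyclin A2 (CCNA2) had a log2 fold change of 0.24 with an interval of -0.13 to 0.61, cyclin B1 (CCNB1) one of 0.17 (-0.05 to 0.40) and cyclin B2 (CCNB2) one of 0.10 (-0.18 to 0.39), with adjusted p-values of 0.556, 0.486 and 0.756 from limma. CDC25B, another phosphatase that activates CDK1, had 0.06 (-0.18 to 0.30). FOXM1, the transcription factor that acts with MuvB and B-MYB on G2/M promoters, had 0.03 (-0.30 to 0.35, adjusted p = 0.955 from limma), an estimate that took the other sign under quantile normalization.

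In the centrosome and spindle group, 6 of 7 measured members were above 0, with a median of 0.21, and 2 were higher at an unadjusted p under 0.05 from limma. ASPM, which focuses microtubules at spindle poles, had 159.8, 167 and 165 in MB-231-maspin, against 131, 141 and 127 in MB-231-control. The lines were well apart (log2 fold change 0.31, 95% interval 0.13 to 0.48, adjusted p = 0.146 from limma). DLGAP5, also called HURP, a stabiliser of kinetochore microtubules, had 688, 602 and 569 in MB-231-maspin, against 455, 566 and 434 in MB-231-control. Here MB-231-maspin replicate 1 was highest and MB-231-control replicate 2 came within a few units of MB-231-maspin replicate 3 (log2 fold change 0.36, adjusted p = 0.259 from limma). AURKA, the Aurora kinase of the centrosome, just missed the unadjusted threshold, with a log2 fold change of 0.22 (95% interval -0.0024 to 0.44, unadjusted p = 0.052 from limma).

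The remaining spindle members spread around smaller values. KIF2C, a kinesin that depolymerises microtubules, had a log2 fold change of 0.21 (-0.10 to 0.52), and NEK2, a kinase of centrosome separation, 0.20 (-0.05 to 0.45). KIF11, the kinesin that pushes the spindle poles apart, had 0.03 (-0.17 to 0.23), which turned below 0 under quantile normalization. TPX2, which activates Aurora A on the spindle, had 1414, 1157 and 1127 in MB-231-maspin, against 1299, 1367 and 1162 in MB-231-control. The groups overlapped widely and the estimate lay slightly below 0 (log2 fold change -0.05, 95% interval -0.31 to 0.20, adjusted p = 0.873 from limma).

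The small group of anaphase genes was mixed. CDC20, the activator of the anaphase-promoting complex, had 1159.6, 1192 and 1147 in MB-231-maspin, against 929, 1117 and 921 in MB-231-control. Its lines were apart (log2 fold change 0.24, adjusted p = 0.319 from limma). PTTG1, or securin, the inhibitor of separase that the complex destroys, was the member with the lowest estimate, with 1297, 1289 and 1347 in MB-231-maspin, against 1467, 1331 and 1543 in MB-231-control. MB-231-control replicates 1 and 3 lay above all MB-231-maspin arrays, and MB-231-control replicate 2 lay within their range (log2 fold change -0.14, 95% interval -0.33 to 0.05, adjusted p = 0.499 from limma). PTTG1 has near-identical copies in the genome, and without the probe's sequence its value may include theirs. UBE2C, the ubiquitin-conjugating enzyme of the complex, had 1002, 863 and 855 in MB-231-maspin, against 874, 1037 and 848 in MB-231-control. Its groups overlapped, with an estimate near 0 (-0.02, 95% interval -0.26 to 0.23).

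Genes of the central spindle and cytokinesis all lay above 0, with a median of 0.19, and 2 of 5 were higher at an unadjusted p under 0.05 from limma. KIF23, the kinesin subunit of centralspindlin, had 292, 307 and 332 in MB-231-maspin, against 256, 283 and 236 in MB-231-control. ANLN, anillin of the contractile ring, had 705, 649.5 and 635 in MB-231-maspin, against 510.1, 596 and 561 in MB-231-control. For both genes the lines were apart (log2 fold changes 0.27 and 0.26, adjusted p = 0.279 and 0.267 from limma). ECT2, the exchange factor that activates RHOA at the cleavage site, had a log2 fold change of 0.19 (-0.02 to 0.41). KIF20A, a kinesin that brings the passenger complex to the midzone, had 0.14 (-0.08 to 0.35), and PRC1, which bundles midzone microtubules, 0.07 (-0.13 to 0.28).

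The 2 genes that pathologists and cell biologists use as marks of proliferation were both higher at an unadjusted p under 0.05 from limma. TOP2A, topoisomerase IIα, which untangles sister chromatids, had 2077, 2172 and 2167 in MB-231-maspin, against 1648, 1881 and 1546 in MB-231-control. The MB-231-maspin arrays lay above all MB-231-control arrays (log2 fold change 0.34, 95% interval 0.13 to 0.55, adjusted p = 0.171 from limma). MKI67, which encodes the Ki-67 antigen of cycling cells, had 179, 227 and 204 in MB-231-maspin, against 172, 183 and 125 in MB-231-control. Only MB-231-control replicate 3 stood clearly lower for MKI67, and the other control arrays came close to or within the MB-231-maspin range (log2 fold change 0.36, unadjusted p = 0.0493 and adjusted p = 0.374 from limma). Without that array the log2 fold change of MKI67 was 0.19.

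**Figure D3:**
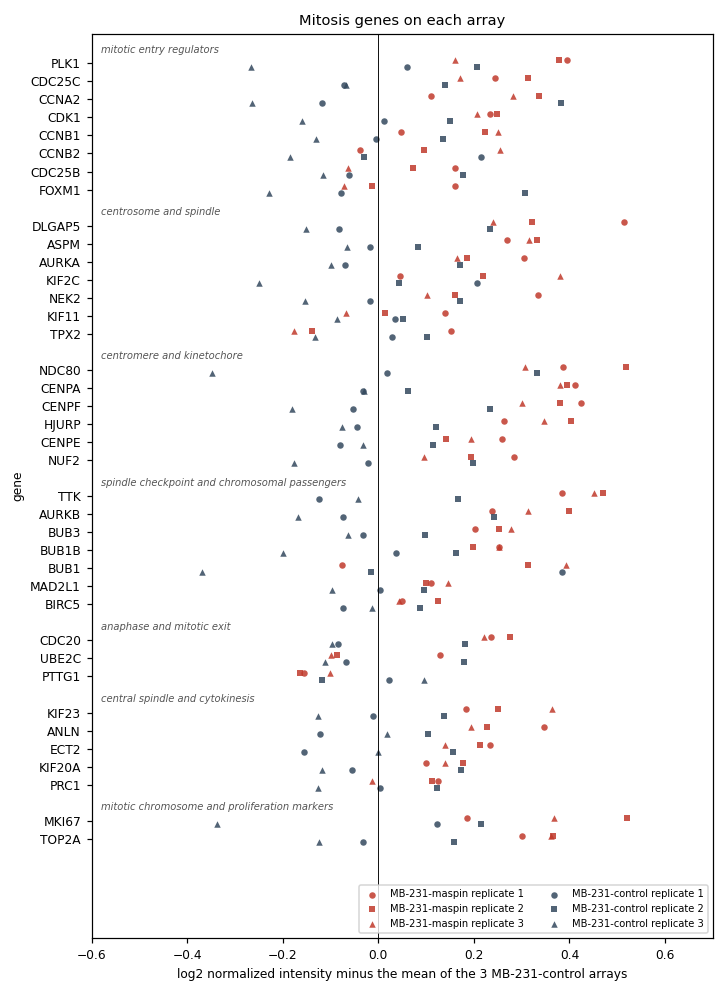
Log2 normalized intensity of each measured mitosis gene on each array, relative to the mean of the 3 MB-231-control arrays (horizontal axis), by role and gene (vertical axis). Red points are the 3 MB-231-maspin arrays and dark points the 3 MB-231-control arrays, with a shape per replicate number; MB-231-control replicate 2 (dark squares) was the highest control array for 34 of 38 genes and replicate 3 (dark triangles) the lowest for 30.

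The MB-231-control arrays differed among themselves in these genes as much as the lines did. The median deviation of the 38 members from each gene's mean over the 6 arrays was 0.12, 0.12 and 0.09 on MB-231-maspin replicates 1, 2 and 3, against -0.12, 0.05 and -0.23 on MB-231-control replicates 1, 2 and 3 (log2 units). The same order of control arrays held across the array: over all genes tested with a value on all 6 arrays, the medians were 0.05, 0.02 and 0.00 in MB-231-maspin, against -0.01, 0.08 and -0.12 in MB-231-control. MB-231-control replicate 2 was the highest control array for 34 of 38 members and for 71.4% of all genes, and MB-231-control replicate 3 was the lowest for 30 of 38 and for 71.7%. Members lay above MB-231-control replicate 2 in 26, 28 and 23 of 38 cases on MB-231-maspin replicates 1, 2 and 3. Against MB-231-control replicate 1 these counts were 34, 32 and 32, and against MB-231-control replicate 3 they were 37, 36 and 36.

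Each count was therefore also taken without these arrays. Without MB-231-control replicate 2, members higher at an unadjusted p under 0.05 from limma numbered 27, beside 22% of all genes, and members with the lines apart numbered 29, beside 35.6%. In that setting 4 members passed an adjusted p of 0.05 from limma (TOP2A, CENPA, CENPF and TTK), beside 1.74% of all genes. The median log2 fold change was then 0.30 over the 38, against 0.09 over all genes. Without MB-231-control replicate 3, 9 members were higher at an unadjusted p under 0.05, beside 6.03% of all genes. The median was then 0.16 over the 38, against -0.03 over all genes. The log2 fold changes of 5 of the 19 members moved by over 1.5 times without that array, to 0.23 for NDC80, 0.19 for MKI67, 0.18 for PLK1, 0.15 for CDK1 and 0.14 for BUB1B. When each array was instead centred on the median of the genes tested, a setting chosen after seeing the data, CENPA alone passed the adjusted threshold in limma (adjusted p = 0.0438), beside 1.77% of all genes. With this centring 19 members were higher at an unadjusted p under 0.05 and 0 lower, beside 9.06% and 8.84% of all genes, 22 had the lines apart, beside 12.5%, and the median was 0.18, against -0.01 over all genes.

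**Figure D4:**
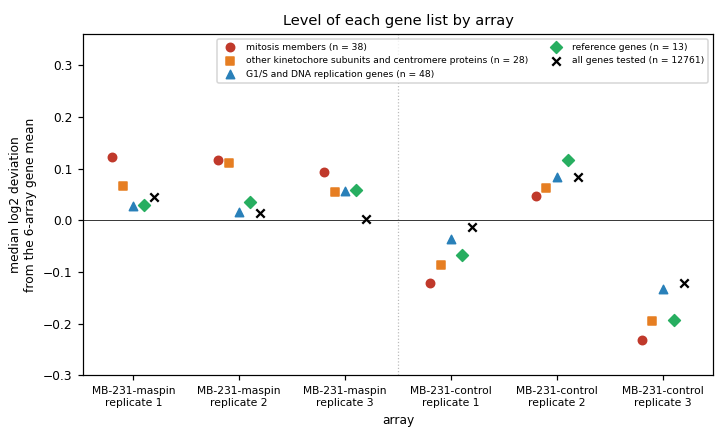
Median log2 deviation from each gene's 6-array mean (vertical axis) on each of the 6 arrays (horizontal axis), for the mitosis members and 4 other gene sets. The mitosis members lie at 0.12, 0.12 and 0.09 on the MB-231-maspin arrays and at -0.12, 0.05 and -0.23 on the MB-231-control arrays; all sets are highest among control arrays on replicate 2 and lowest on replicate 3.

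For 8 members the array holds a second, dimmer probe. Both probes of TTK gave a log2 fold change of 0.44, each with the lines apart, and both of DLGAP5 were higher at an unadjusted p under 0.05 from limma (0.36 for the brighter and 0.22 for the dimmer). For CENPE and TOP2A this held for the brighter probe only: the dimmer one gave 0.01 for CENPE, and 0.43 for TOP2A at an unadjusted p of 0.0559 from limma. KIF2C passed with its dimmer probe only (0.37, against 0.21 with the brighter). CCNB1, ECT2 and MAD2L1 passed with neither, and for ECT2 the dimmer probe gave -0.01 against 0.19. The estimates of the probe pair differed by over 0.15 for CENPE, ECT2 and KIF2C.

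Other genes of mitosis, in 7 lists with 121 genes tested, had a median log2 fold change of 0.11. In limma, 21 (17.4%) were higher at an unadjusted p under 0.05 and 0 lower. Over all genes tested, 9.49% were higher and 3.84% lower at that threshold. None of the 121 passed the adjusted threshold in limma, and 95 (78.5%) were above 0, beside 59.9% of all genes tested. Further kinetochore and centromere proteins had the highest median of the lists, at 0.18, with 6 of 28 higher at the unadjusted threshold. CENPI, of the inner kinetochore network that reads CENPA nucleosomes, had 169.7, 164 and 159 in MB-231-maspin, against 113, 135 and 104 in MB-231-control. Its lines were apart (log2 fold change 0.49, adjusted p = 0.107 from limma). Other checkpoint and passenger proteins had a median of 0.14, with 1 of 12 (8.33%) higher at that unadjusted threshold, beside 9.49% of all genes tested. That gene was MAD2L1BP, which encodes p31comet, a protein that silences the checkpoint, with 486, 494 and 523 in MB-231-maspin, against 369.9, 403 and 354 in MB-231-control (adjusted p = 0.0766 from limma).

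Further spindle motors and assembly factors had a median of 0.11, with 7 of 27 higher at an unadjusted p under 0.05 from limma. KIFC1, the minus-end kinesin that clusters centrosomes, had 584, 586 and 571 in MB-231-maspin, against 395, 484 and 373 in MB-231-control, with no overlap (log2 fold change 0.48, adjusted p = 0.112 from limma). In the anaphase-promoting complex and cohesin list 5 of 25 (20.0%) were higher at that unadjusted threshold, and among condensins 1 of 9 (11.1%). Among other cytokinesis factors 1 of 6 (16.7%) were, and among other entry and exit regulators 0 of 14, beside 9.49% of all genes tested. These 4 lists had medians of 0.07, 0.05, 0.09 and 0.07. The smallest p of each belonged to STAG1 of cohesin (0.23), SMC2 of condensin (0.35), the septin SEPTIN7 (0.29) and CCNF, cyclin F (0.27), with adjusted p-values of 0.257, 0.2, 0.253 and 0.445 from limma.

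Lists of other cell cycle genes also had medians below the 0.22 of the members, within the range of the 7 mitotic lists above (0.05 to 0.18). Of 48 genes of the G1/S transition and DNA replication, 4 (8.33%) were higher at an unadjusted p under 0.05 from limma and 0 lower. Over all genes tested, 9.49% were higher and 3.84% lower. The G1/S and replication genes had a median log2 fold change of 0.06. PRIM2, a subunit of the primase, had the smallest p (log2 fold change 0.29, adjusted p = 0.176 from limma). Subunits of the B-MYB, MuvB and DREAM complexes and NF-Y had a median of 0.10, with 3 of 13 higher at that unadjusted threshold. These were led by NFYB of NF-Y (0.20, adjusted p = 0.286 from limma), with E2F4 and NFYA the others. MYBL2, which encodes B-MYB, had the lowest estimate of the list (-0.17, 95% interval -0.39 to 0.06). Of 15 CDK inhibitors and arrest genes 3 were higher, with a median of 0.07. CDKN1A, which encodes the CDK inhibitor p21, had 171, 175 and 193 in MB-231-maspin, against 137, 146 and 137 in MB-231-control, with the lines apart (log2 fold change 0.36, adjusted p = 0.121 from limma). Among 13 reference genes 0 were higher at that threshold, with a median of 0.06. The difference between the members and these lists was not tested.

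**Figure D5:**
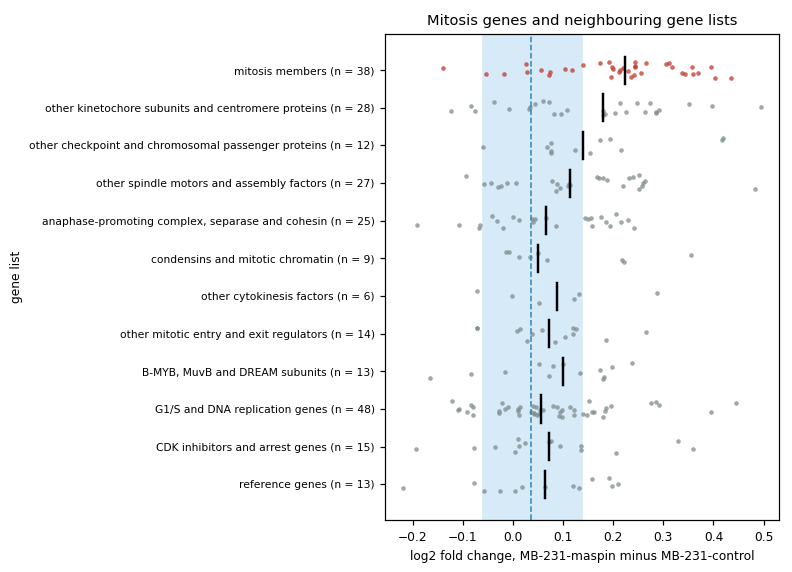
Log2 fold change, MB-231-maspin minus MB-231-control (horizontal axis), of the 38 measured mitosis members (red) and of the genes of 11 other lists (grey, vertical axis). Black bars are list medians, the dashed line is the median over all 12766 genes tested (0.04) and the blue band spans their quartiles (-0.06 to 0.14); the members' median is 0.22.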

How the data were processed

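RNA of the maspin line and of the ZsGreen control line was measured on 6 arrays, 3 for each, grouped by the sample labels. The authors read the spots with a 3D-Gene Scanner, subtracted 1 background intensity per array (67.8 to 70.3 scanner units) and scaled the deposited intensity to an array median of 25, leaving probes close to the background blank. A second deposited table holds a score for each probe, the same values rounded by the authors to whole numbers, and was used only as an alternative. The software version is not given in the sources used here. No slide or scan date was found in these files, and no such block was run. The number of arrays limits the precision.

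Of 24460 gene probes, 22967 carried a symbol and 1493 did not; 33 symbols turned into dates by a spreadsheet were restored through the Entrez identifier. Each gene was represented by its brightest probe, on average over the 6 arrays. The filter was a group mean over 10 in at least 1 of the lines, as in the study's methods, with values on at least 2 arrays of each. For all 12766 such genes, limma 3.58.1 under R 4.3.3 was run on the log2 values through lmFit and then eBayes, as a two-sided test of MB-231-maspin minus MB-231-control with Benjamini-Hochberg adjustment over all of them at 0.05; the prior had 4.02 degrees of freedom and the residual 4. The code was tested on simulated data. With 3 arrays against 3, an exact permutation test could not reach 0.05. The methods of the study name Student's t-test, which was run as an alternative. Python 3.11.15 with numpy 2.4.6, pandas 2.3.3 and matplotlib 3.10.9 gave the tables, promoter searches and figures, and the promoter sequences are those of RefSeq (GRCh38.p14).

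The members, the gene lists and the rules were chosen with earlier results of these data known. All members are named. Values on every array are given for members with an unadjusted p under 0.05, for those below 0 and, in a role group without either, for the member with the smallest p; from each pathway list the gene with the smallest p is named where none passed the adjusted threshold. For 1 gene that this rule names, the result is not reported here. Alternatives were the t-test, a trend with a robust prior, a minimum mean of 50 or none, normexp (offset 50) or plain quantile normalization, log2(value + 10), the rounded table, every probe, a replicate block, and the fit without each single array. Centring each array on the genes tested was added after seeing the data.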

Additional observations from a re-analysis of the deposited data

How the results depend on the processing

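The 38 members were refitted under 17 alternatives, of which 1, centring each array on the genes tested, was chosen after seeing the data. Of 644 single-gene estimates, 616 kept their direction and their side of the adjusted threshold, 10 passed the adjusted threshold newly and 18 changed sign; 31 members changed sign under none of these alternatives. The count of members past an adjusted p of 0.05 in limma was 0, and became 4 after normexp and quantile normalization (TOP2A, CENPA, TTK and HJURP), 1 with log2(value + 10) (CENPA) and 1 with the arrays centred (CENPA), beside 1.87%, 0.768% and 1.77% of all genes. The methods' t-test left 11 members higher at an unadjusted p under 0.05 in place of 19, beside 9.43% of all genes in place of 9.49%, and 0 after Benjamini-Hochberg adjustment. Without the filter on dim genes, limma gave 13 members higher at an unadjusted p under 0.05, beside 6.85% of all genes. Leaving out each array in turn gave 0 to 4 members past the adjusted threshold, 8 to 27 higher and 0 to 1 lower at an unadjusted p under 0.05, 16 to 29 with the lines apart, and a median log2 fold change of 0.16 to 0.30. The highest of each range came without MB-231-control replicate 2. In that setting 22% of all genes were higher at an unadjusted p under 0.05, against 5.8% to 6.86% without any other array. The lines were apart for 35.6% of all genes, against 14.5% to 17.6%, and 1.74% passed the adjusted threshold, against 0.227% to 1.35%. The median log2 fold change over all genes was 0.09, against -0.03 to 0.05. The share lower at the unadjusted threshold was 3.97%, within the 1.83% to 6.67% of the other settings. The ranges for the members thus moved together with those for all genes, except for members lower. Quantile normalization gave FOXM1 -0.0022 and KIF11 -0.029, and normexp gave FOXM1 -0.013, KIF11 -0.034 and BIRC5 -0.0027. Centring gave FOXM1 -0.019 and KIF11 -0.016, and with every probe tested, ECT2 was at -0.012 by its dimmer probe, against 0.195 by its brighter one. Without single arrays FOXM1 ranged over -0.089 to 0.178, KIF11 over -0.027 to 0.076, UBE2C over -0.093 to 0.071, TPX2 over -0.157 to 0.0068 and CDC25B over -0.0011 to 0.145. The cause of these shifts was not tested.

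The labels do not say whether same-numbered samples were paired. Deviations of same-numbered arrays correlated at -0.37, 0.48 and 0.19 for numbers 1, 2 and 3, against -0.49 to 0.31 for arrays of unlike number. These values cannot show whether samples were paired, because differences between arrays over all genes enter them too. With the replicate block, 17 members were higher at an unadjusted p under 0.05, beside 9.93% of all genes, 0 passed the adjusted threshold, 16 had the lines apart, beside 13.8%, and the median stayed at 0.22; 117 of all genes passed the adjusted threshold, against 109 without the block.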
